A study of Mus musculus with 4 samples.

Results

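A group of 10 genes that brake the cell cycle or mark cellular senescence was followed in whole mouse brain: the cyclin-dependent kinase inhibitors Cdkn1a, Cdkn1b, Cdkn2a, Cdkn2c and Cdkn2d, the tumour suppressor Trp53 and its inhibitor Mdm2, the retinoblastoma gene Rb1, the deacetylase gene Sirt1 and the telomerase gene Tert. They were chosen by name, and every array probe whose RefSeq accession belongs to one of them was used. This gave 10 of 16535 genes named on the array and 15 of its 41174 probes. None of the 9 genes that could be measured reached 1.5-fold on both arrays of a comparison. Of all measured probes, 1.43% did so between strains and 0.0800% between diets. Cdkn2d was at 1.496-fold on 1 strain array, just under this limit, and passed it on both with some other ways of processing. The largest difference was that of Cdkn2d between the strains, 1.63-fold higher in SAMP8 than in SAMR1 in the mean of both arrays, and the largest difference between diets was that of Cdkn1a, 1.14-fold higher with the supplemented diet.

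SAMP8 (senescence-accelerated mouse prone 8) is an inbred line with early deficits in learning and memory, and SAMR1 (senescence-accelerated mouse resistant 1) is the line commonly set against it. The labels give both the same genetic background, AKR/J with a suspected outcross to an unknown line. The control diet contained low safflower oil (LSO), the other contained whale meat extract (WME). SAMP8 mice ate one or the other and SAMR1 mice ate LSO only, from 24 weeks of age and for 26 weeks. After behavioural tests over 8 days at 49 weeks, brains were taken at 50 weeks. The 4 2-colour Agilent arrays carried 2 pairs of RNAs, SAMP8 LSO with SAMR1 LSO (the strain comparison) and SAMP8 WME with SAMP8 LSO (the diet comparison), each hybridised again with Cy3 and Cy5 exchanged, so on 2 arrays. The labels used here tell neither the number of mice per RNA nor whether RNA was pooled, so each group is 1 RNA and no p-value is given. The SD printed with a ratio is over the 2 dye orientations and measures technical error only. Both comparisons use SAMP8 LSO, so their ratios are not independent of each other and are given side by side only.

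Cells leave the division cycle when cyclin-dependent kinases are blocked. The Cip/Kip inhibitors (Cdkn1a, which encodes p21, and Cdkn1b, which encodes p27) bind many cyclin-kinase complexes, whereas the INK4 inhibitors (Cdkn2a, Cdkn2c and Cdkn2d among them) bind the kinases CDK4 and CDK6. With the kinases blocked, the retinoblastoma protein stays bound to E2F factors and the genes of DNA replication stay off. Trp53 encodes p53, which is stabilised by DNA damage and switches on Cdkn1a and Mdm2, and Mdm2 in turn marks p53 for degradation. Cdkn1a and the p16 and p19ARF transcripts of Cdkn2a are the usual RNA markers of senescent cells. In brain, most neurons have left the cycle for good, and INK4 and Cip/Kip genes are among those that keep them there.

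For the 3 genes on which most of the results turn, the 250 bases before the RefSeq start are shown here 5′ to 3′ on the gene's own strand (RefSeq promoters, GRCm38.p6, with 9 of the 10 genes matched). They are Cdkn2d, at chr9:21291210-21291459 on the minus strand, the first of 2 starts of Cdkn1a, at chr17:29090729-29090978 on the plus strand, and Trp53, at chr11:69580109-69580358 on the plus strand. Capitals mark motif matches on either strand, and neighbouring or overlapping matches run together.
Cdkn2d: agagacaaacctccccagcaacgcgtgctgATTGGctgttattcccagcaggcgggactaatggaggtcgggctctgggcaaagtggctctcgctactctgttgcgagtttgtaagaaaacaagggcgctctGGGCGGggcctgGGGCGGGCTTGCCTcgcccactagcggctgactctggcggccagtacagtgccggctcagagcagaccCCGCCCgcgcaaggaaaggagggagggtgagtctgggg
Cdkn1a: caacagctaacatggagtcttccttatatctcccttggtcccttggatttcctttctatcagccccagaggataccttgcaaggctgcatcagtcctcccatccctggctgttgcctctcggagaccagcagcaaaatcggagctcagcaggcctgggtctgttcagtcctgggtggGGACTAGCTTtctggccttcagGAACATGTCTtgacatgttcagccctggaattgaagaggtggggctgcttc
Trp53: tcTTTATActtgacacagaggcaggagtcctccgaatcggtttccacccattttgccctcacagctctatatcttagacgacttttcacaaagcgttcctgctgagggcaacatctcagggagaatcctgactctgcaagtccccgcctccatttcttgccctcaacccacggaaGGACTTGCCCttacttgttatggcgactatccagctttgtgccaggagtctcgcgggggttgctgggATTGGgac
A set of 5 motifs was searched for on both strands: the TATA box TATAAA, the GC box GGGCGG, the CCAAT box CCAAT, the E2F site TTTCCCGC and the degenerate half-site of p53. The Cdkn2d window held GC boxes beginning 118, 106 and 38 bases before the start, the middle one overlapping a p53 half-site match that begins 102 bases before it, and a CCAAT box on the other strand. The first Cdkn1a window held p53 half-site matches beginning 73 and 51 bases before the start and no GC box, whereas the window of its second start held GC boxes beginning 104 and 46 bases before the start. The Trp53 window held a p53 half-site match at 75 bases, a CCAAT box at 8 bases and a TATA box match at 248 bases. Among 32817 promoter windows of this length, 7.12% held a p53 half-site match and 0.259% held at least 2, and among the 12 windows of the 9 genes it was found in 4 (Cdkn1a, Cdkn2d, Trp53 and Mdm2). GC boxes were in 8 of the 12 windows and in 32.7% of all windows, and CCAAT boxes were in 4 of the 12 and in 33.8% of all. The E2F site was in 1 of the 12, the first start of Cdkn2a, and in 0.893% of all windows, and the TATA box was in 1 of the 12 and in 12.4% of all. These matches describe the letters in each window and say nothing about binding in these brains.

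Of the 15 probes, 14 were measured in each comparison, meaning that both arrays of the pair flagged 1 or both of their RNAs as well above background, and they covered 9 of the 10 genes. A call needed 1.5-fold or more (0.585 on the log2 scale) on each array of the pair in 1 direction. By this rule 0 of the 14 probes were called between strains, where 1.43% of all 34020 measured probes were, and 0 of 14 between diets, where 0.0800% of 33738 were. At the lower limit of 1.2-fold (0.263 on the log2 scale) on both arrays, 2 of 14 passed between strains, both higher in SAMP8, against 4.38% of all measured probes in either direction and 2.67% in that direction. Between diets 0 of 14 passed, against 0.264% of all. The median log2 ratio of the 14 probes was 0.09 between strains and −0.01 between diets, where the medians of all measured probes were −0.0031 and 0.0033. The central 95% of all measured probes lay between −0.26 and 0.35 for strain and between −0.14 and 0.13 for diet.

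**Figure D1:**
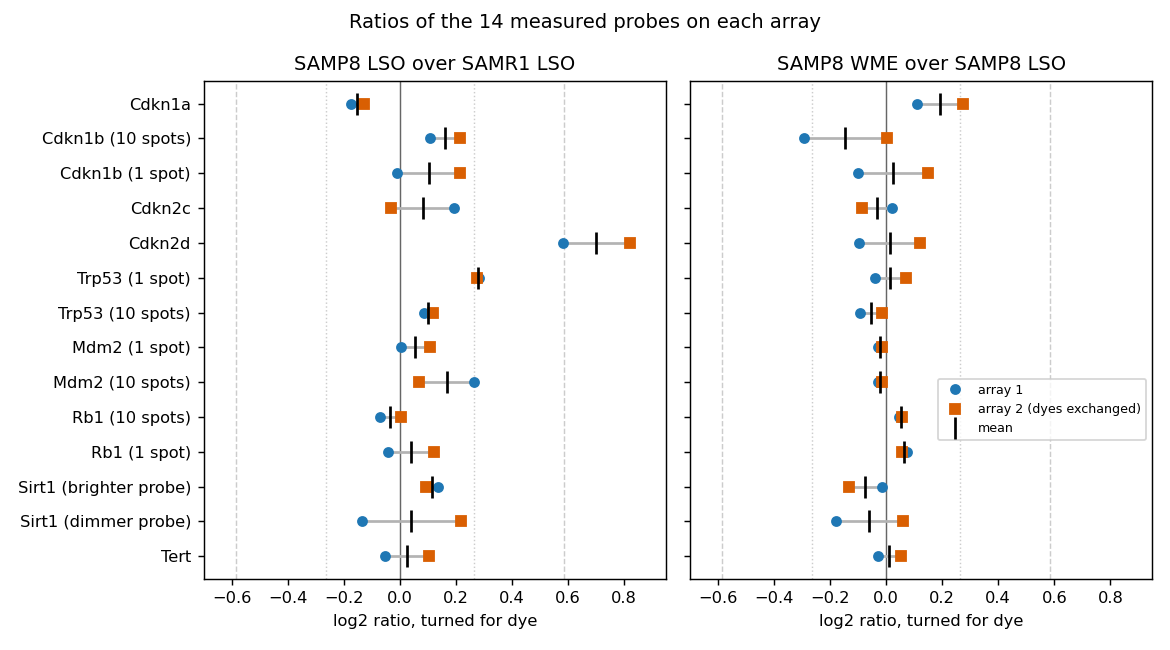
Log2 ratios of the 14 measured probes on array 1 (circles) and array 2 (squares), with their mean (bars), for SAMP8 LSO over SAMR1 LSO on the left and SAMP8 WME over SAMP8 LSO on the right. Dotted lines mark 1.2-fold and dashed lines 1.5-fold. Cdkn2d stands apart between strains, at 0.58 and 0.82, and Cdkn1a is below 0 on the left and above 0 on the right.

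Cdkn2d encodes p19INK4d, an INK4 inhibitor of CDK4 and CDK6 that differentiated neurons express. Its raw spot signals on the strain arrays were 4760.5 (SAMP8) and 3001 (SAMR1) on array 1 and 4767 (SAMP8) and 3277 (SAMR1) on array 2, over a background of 60 to 71 across all channels. After normalisation its channel levels in SAMP8 LSO, measured on all 4 arrays, were 12.31, 12.23, 12.20 and 12.32 on the log2 scale. In SAMP8 WME they were 12.22 and 12.35, and in SAMR1 they were 11.62 and 11.50. Both SAMP8 RNAs were therefore above SAMR1 in every channel, and the levels of the 2 SAMP8 RNAs overlapped. The order of the means was SAMP8 WME (12.28 ± 0.09, SD, n = 2 channels), SAMP8 LSO (12.27 ± 0.06, n = 4) and SAMR1 (11.56 ± 0.09, n = 2), and the first and second in this order did not differ beyond their spread.

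The Cdkn2d log2 ratio between strains was 0.58 on array 1 and 0.82 on array 2, with a mean of 0.70 ± 0.17, or 1.63-fold. The fold was 1.496 on array 1 and 1.767 on array 2, so that array 1 alone kept it just under the call. A ratio at least this large in its mean was found in 1.24% of measured probes, and 1.76% of them passed 1.5-fold in the mean of both arrays, a rule added after this value was seen. The technical SD of a mean ratio at like brightness, taken from the difference of the dye effects of both pairs, was 0.0374. Between diets the Cdkn2d ratios were −0.10 and 0.12, with a mean of 0.01 ± 0.16, and 83.7% of measured probes had a mean ratio at least as large. With Feature Extraction's own processed signals, with the deposited log2 ratios or with a normexp offset of 16, Cdkn2d passed 1.5-fold on both arrays. The gene has 1 probe, printed as 1 spot on each array, so its values rest on 4 spots in all.

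**Figure D2:**
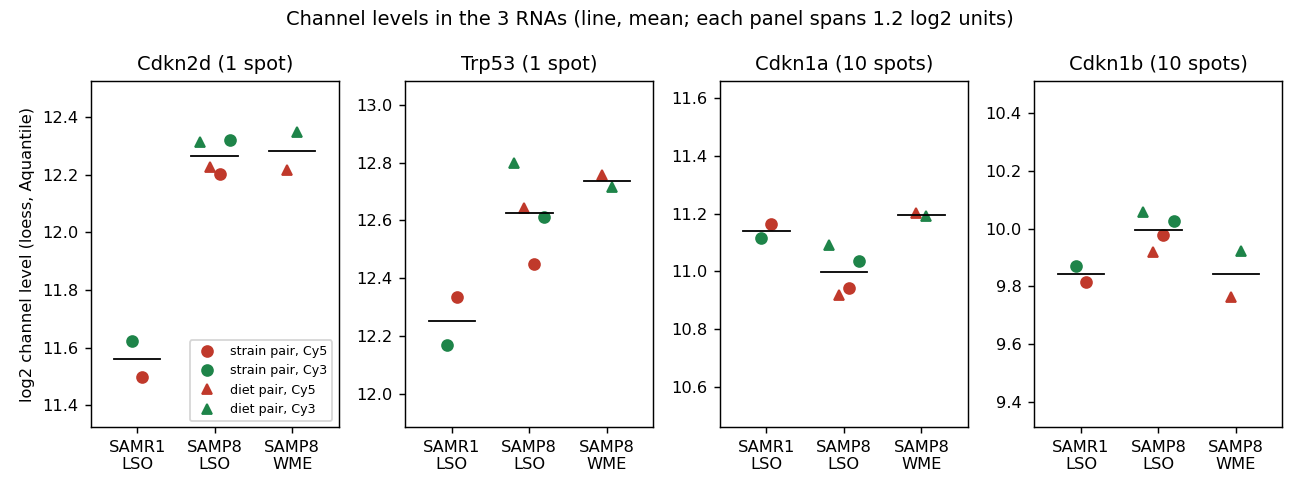
Normalised log2 channel levels of the brightest probes of Cdkn2d, Trp53, Cdkn1a and Cdkn1b in the 3 RNAs, with circles for the strain pair, triangles for the diet pair, red for Cy5, green for Cy3 and a line at each mean; every panel spans the same range. At these probes SAMR1 is below both SAMP8 RNAs for Cdkn2d and Trp53, and SAMP8 LSO is below the other RNAs for Cdkn1a. At the dimmer Trp53 probe, not drawn, SAMP8 WME overlaps SAMR1.

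Cdkn2a encodes p16INK4a from one start and p19ARF from another. Its probe, printed 10 times on each array, was not well above background in any of 72 channel readings from 36 spots that were not outliers. Raw signals were 60 to 79 and local backgrounds 59 to 84, in all 3 RNAs alike, so the RNA was not detectable with this probe and no ratio or level is given. Which of its transcripts the probe covers was not examined. Cdkn2c, which encodes p18INK4c, had log2 ratios of 0.19 and −0.03 between strains (0.08 ± 0.16) and of 0.02 and −0.09 between diets (−0.03 ± 0.08). Its levels overlapped in all 3 RNAs, from 8.85 to 9.22, and its sign differed between arrays in both comparisons.

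Cdkn1a encodes p21, a p53 target and the Cip/Kip inhibitor most used as a senescence marker. Its channel levels in SAMP8 LSO were 11.09, 10.92, 10.94 and 11.04, below both values of SAMP8 WME (11.20 and 11.19) and both of SAMR1 (11.12 and 11.16). The highest SAMP8 LSO value and the lowest SAMR1 value differ by less than the spread of the SAMP8 LSO channels (SD 0.08). Between diets the log2 ratio was 0.11 on array 1 and 0.27 on array 2, with a mean of 0.19 ± 0.12, or 1.14-fold higher with WME. Only 1.24% of measured probes had a diet ratio as large, although the fold is small and was past 1.2 on array 2 alone (1.209). Between strains the ratio was −0.17 and −0.13, with a mean of −0.15 ± 0.03, or 1.11-fold lower in SAMP8, and 15.7% of measured probes had a ratio as large. The probe is printed 10 times, and at most 2 spots per array were left out as outliers. All 8 spots on array 1 and all 10 on array 2 were above 0 between diets, and 0 of 9 spots on each array were above 0 between strains.

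Cdkn1b encodes p27, the Cip/Kip inhibitor most closely tied to quiescence. Its brighter probe, with 10 spots, had log2 ratios of 0.11 and 0.21 between strains (0.16 ± 0.07, or 1.12-fold), and all 10 spots were above 0 on both arrays. Its levels were 9.92 to 10.06 in SAMP8 LSO and 9.82 to 9.87 in SAMR1, so that these did not overlap. Between diets the same probe gave −0.29 on array 1, with 0 of 10 spots above 0, and 0.00 on array 2, with 5 of 10 above 0, a mean of −0.15 ± 0.21. The 10 spots of an array varied with an SD of 0.05 to 0.06 there, much less than the 2 arrays differed, so repeated spots did not capture the difference between dye orientations. Its dimmer probe, a single spot, gave −0.01 and 0.22 between strains (0.10 ± 0.16) and −0.10 and 0.15 between diets (0.02 ± 0.18), with different signs on the 2 arrays in both.

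**Figure D3:**
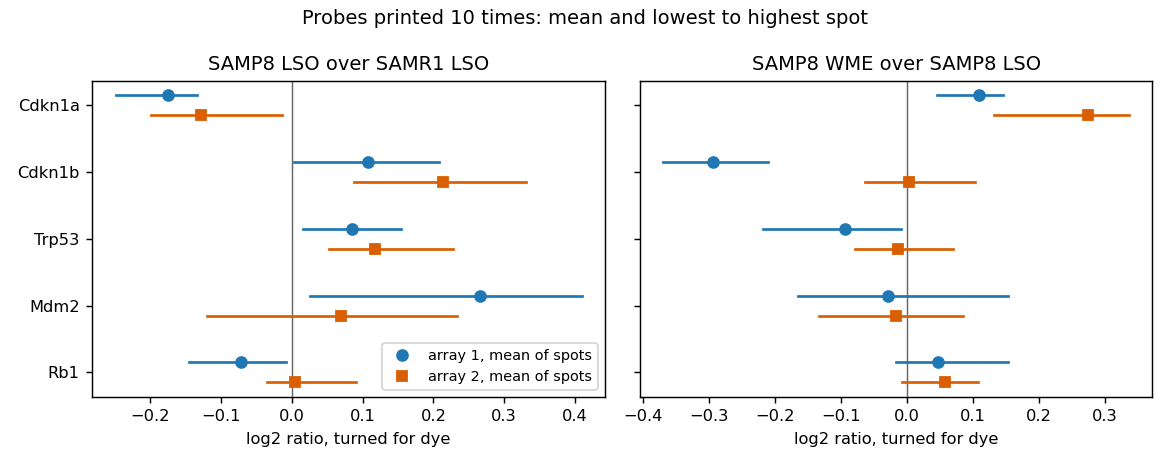
Log2 ratios of the 5 measured probes printed 10 times, with the mean (marker) and the lowest to highest spot (line) on array 1 (circles) and array 2 (squares), for the strain comparison on the left and the diet comparison on the right. Every Cdkn1a spot lies below 0 on the left and above 0 on the right, and the Cdkn1b arrays do not overlap between diets.

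Trp53 was read by 2 probes that were both above 0 on both strain arrays but differed in size. The brighter one, a single spot, had channel levels of 12.80, 12.64, 12.45 and 12.61 in SAMP8 LSO, 12.76 and 12.72 in SAMP8 WME, and 12.17 and 12.34 in SAMR1. On this probe SAMR1 was thus the lowest of the 3 RNAs, and the 2 SAMP8 RNAs overlapped. The nearest values of SAMP8 LSO and SAMR1 (12.45 and 12.34) differ by less than the SD of either RNA (0.14 and 0.12). The log2 ratio of this probe between strains was 0.28 on both arrays, with a mean of 0.28 ± 0.00, or 1.21-fold higher in SAMP8. It was past 1.2-fold on both arrays by a narrow margin (1.216 and 1.211), and 5.66% of measured probes had a ratio as large. With processed signals (0.28), median centring (0.21) or the deposited ratios (0.27) it was under 1.2-fold on at least 1 array. The probe with 10 spots gave 0.09 and 0.12 (0.10 ± 0.02, or 1.07-fold), with 10 of 10 spots above 0 on each array. Its levels were 10.37 to 10.43 in SAMP8 LSO, 10.31 and 10.36 in SAMP8 WME, and 10.29 and 10.32 in SAMR1. There SAMP8 WME overlapped SAMR1 and lay below SAMP8 LSO, so the 2 probes differ in the place of SAMP8 WME. Between diets the ratios were −0.04 and 0.07 for the brighter probe (0.02 ± 0.08) and −0.09 and −0.01 for the other (−0.05 ± 0.06).

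Mdm2 encodes the ubiquitin ligase that limits p53. Its brighter probe had log2 ratios of 0.00 and 0.11 between strains (0.06 ± 0.07), and its probe with 10 spots had 0.27 and 0.07 (0.17 ± 0.14, or 1.12-fold). On that probe 10 of 10 spots were above 0 on array 1 and 8 of 10 on array 2. The levels of SAMP8 LSO and SAMR1 did not overlap for either probe, but for the brighter they came within much less than their spread (11.11 against 11.10 at the nearest, with SDs of 0.04 and 0.06). Between diets both probes had means of −0.02 ± 0.01, with both arrays just below 0. Rb1, the pocket protein gene through which the kinase inhibitors act, had means of −0.03 ± 0.05 and 0.04 ± 0.12 between strains and of 0.05 ± 0.01 and 0.06 ± 0.01 between diets, over 10 spots and 1 spot. Both Rb1 probes were above 0 on both diet arrays, by 1.04-fold and 1.05-fold.

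Sirt1 encodes a NAD-dependent deacetylase with p53 among its substrates. The brighter of its 2 single-spot probes gave 0.14 and 0.09 between strains (0.11 ± 0.03) and −0.02 and −0.13 between diets (−0.07 ± 0.08). The dimmer gave −0.14 and 0.22 between strains (0.04 ± 0.25) and −0.18 and 0.06 between diets (−0.06 ± 0.17), with no common sign in either. Tert encodes the reverse transcriptase of telomerase, which most adult brain cells hardly express, and its single spot was well above background in all 8 channels, with raw signals from 216.5 to 464.5. Its ratios were −0.05 and 0.10 between strains (0.02 ± 0.11) and −0.03 and 0.05 between diets (0.01 ± 0.06). Both channels of strain array 2 were brighter (8.73 in SAMR1 and 8.83 in SAMP8 LSO) than the other 6 channels (7.98 to 8.13), so that its level in SAMP8 LSO varied with an SD of 0.40 over 4 channels.

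Over the 14 measured probes, 7 were above 0 on both strain arrays, 1 was below 0 on both and 6 had different signs. Between diets 3 were above, 4 below and 7 mixed. The sign was shared by both arrays for 57.1% of the probes between strains and 50.0% between diets, and for 50.7% and 37.6% of all measured probes. Mean ratios larger than 2 technical SDs of like brightness (SDs of 0.0374 to 0.0606) were found for 7 of 14 probes between strains, against 30.8% of all measured probes, and for 2 of 14 between diets, against 13.3%. The 2 were Cdkn1a and the brighter Cdkn1b probe, and the other 12 were within 0.1 of 0. When the arrays were centred on their median without loess, the diet ratios of all measured probes shifted with brightness, by a median of −0.14 in the dimmest of 10 bins to 0.21 in the brightest, and 7 of the 14 signs turned, against 0 of 14 between strains. Cdkn1a (0.35) and the brighter Cdkn1b probe (−0.03) kept theirs, and less the median of like brightness they were at 0.18 and −0.13. Levels of SAMP8 LSO did not overlap those of SAMR1 for 8 of 14 probes, against 23.8% of all measured probes, and did not overlap those of SAMP8 WME for 4 of 14, against 12.2%.

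Other genes of the pathway were taken from 10 lists, each gene read by its brightest probe. Between strains 1 of 110 measured genes was called, against 1.48% of all genes, and 8 passed 1.2-fold on both arrays (7.27%, against 4.65%), 4 higher and 4 lower in SAMP8. Between diets 0 of 111 were called, against 0.109% of all genes, and 1 passed 1.2-fold, against 0.408%. List medians lay between −0.09 and 0.22 between strains and between −0.05 and 0.02 between diets.

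Among the other CDK inhibitors, Cdkn2b, which encodes p15INK4b and lies next to Cdkn2a, had log2 ratios of 0.42 and 0.51 between strains (0.46 ± 0.06, or 1.38-fold higher in SAMP8) and of 0.02 and 0.04 between diets (0.03 ± 0.01). Cdkn1c, which encodes p57, was at −0.02 ± 0.02 between strains and 0.00 ± 0.10 between diets. Of the INK4 genes, Cdkn2b and Cdkn2d were past 1.2-fold on both strain arrays, as were 4.65% of all genes. Cdkn2c was not, and Cdkn2a was not measured. Like Cdkn2d, Cdkn2b was read by 1 probe printed as 1 spot, and both were chosen with earlier results of these data known. Of 10 Polycomb genes, whose products hold the Cdkn2a locus silent, Ring1 was called between strains at 0.87 and 0.70 (0.79 ± 0.12, or 1.72-fold higher in SAMP8). The second Ring1 probe gave 0.09 ± 0.01, so the 2 probes disagree, and the other 9 genes of this list passed no limit. Its median was −0.01 between strains and −0.02 between diets.

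**Figure D4:**
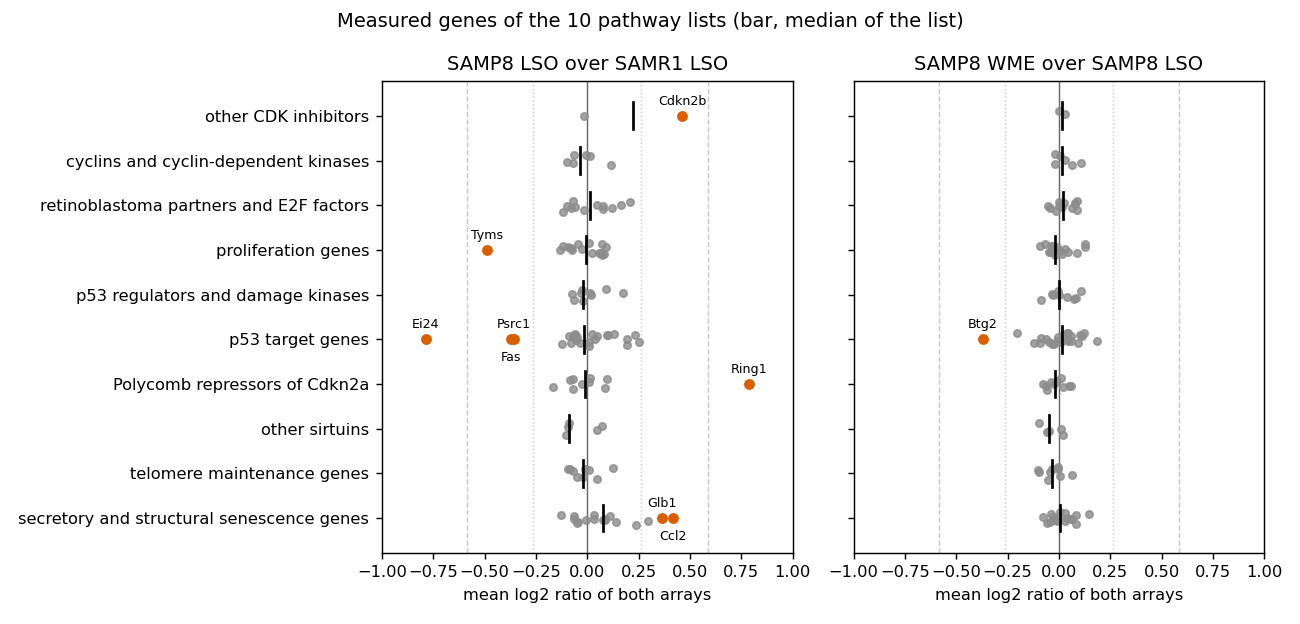
Mean log2 ratios of the measured genes of the 10 pathway lists (points), with the median of each list (bars), for the strain comparison on the left and the diet comparison on the right. Orange points with names passed 1.2-fold on both arrays: 8 genes between strains and Btg2 between diets.

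Of the cyclins and cyclin-dependent kinases, 6 of 8 were measured and 0 passed 1.2-fold in either comparison. Cdk4, which encodes a kinase that the INK4 proteins bind, was at 0.01 ± 0.09 between strains and −0.02 ± 0.08 between diets, and Cdk2 and Cdk6 were not measured. The largest ratio of the list was that of Ccnd2, which encodes cyclin D2, at 0.12 ± 0.05 between strains and 0.11 ± 0.01 between diets, and its dimmest probe gave −0.51 ± 0.05 between strains, against the direction of the other 2. None of the 12 retinoblastoma partners and E2F factors passed 1.2-fold; the largest ratios were 0.21 ± 0.11 for E2f2 between strains and 0.09 ± 0.03 for E2f4 between diets. Among proliferation genes, 1 of 16 measured between strains passed, the thymidylate synthase gene Tyms. It was at −0.48 and −0.49 (−0.49 ± 0.01, or 1.40-fold lower in SAMP8). Its dimmer second probe gave −0.60 and −0.61 (1.52-fold lower), which met the call on both arrays. The count of called genes uses the brightest probe and so leaves it out. The median of this list was −0.01 between strains and −0.02 between diets.

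Among 24 measured p53 target genes, 3 passed 1.2-fold between strains, all lower in SAMP8, where 4.65% of all genes passed in either direction. Over the list 8 genes were above 0 on both strain arrays and 9 were below, and the median was −0.02. Ei24, an endoplasmic reticulum protein gene, was at −1.06 and −0.51 (−0.79 ± 0.39), with diet ratios of −0.29 and 0.36 that had different signs. The death receptor gene Fas (−0.37 ± 0.04) and the mitotic gene Psrc1 (−0.36 ± 0.07) were named after their values were seen. The dimmer Psrc1 probes gave −0.26 ± 0.01 and −0.10 ± 0.13, and neither was past 1.2-fold on both arrays. Between diets only Btg2, an antiproliferative and activity-induced gene, passed: its 3 probes gave −0.37 ± 0.07, −0.38 ± 0.04 and −0.38 ± 0.03, lower with WME, and 0.19 ± 0.04, 0.32 ± 0.08 and 0.22 ± 0.12 between strains. The diet median of the list was 0.01. None of the 9 measured p53 regulators and damage kinases passed; the largest ratios were 0.18 ± 0.01 for Hipk2 between strains and 0.11 ± 0.20 for Crebbp between diets.

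None of the 5 measured other sirtuins passed 1.2-fold, and Sirt5 had the largest ratio in both comparisons, at −0.10 ± 0.14 and −0.10 ± 0.15. None of the 9 measured telomere maintenance genes passed; the largest ratios were 0.12 ± 0.17 for Terf2 between strains and −0.10 ± 0.09 for Rtel1 between diets. Of 17 measured secretory and structural senescence genes, 2 passed between strains. The chemokine gene Ccl2 had 0.53 and 0.31 (0.42 ± 0.16, 1.34-fold higher in SAMP8), and Glb1, which encodes the lysosomal enzyme behind senescence-associated beta-galactosidase staining and was named after its value was seen, had 0.32 and 0.40 (0.36 ± 0.06). The second Glb1 probe gave 0.16 ± 0.08. Lmnb1, the lamin gene whose loss accompanies senescence and which was also named after its value was seen, was at −0.06 ± 0.15. The list median was 0.08 between strains and 0.01 between diets, and the largest diet ratio was 0.15 ± 0.16 for Plaur, whose 2 probes had opposite signs between strains.

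The genes next to each member on the chromosome were taken from the RefSeq gene table. Of the 5 measured protein-coding genes on each side of Cdkn2d, Qtrt1, 4 places away, passed 1.2-fold between strains (0.39 ± 0.05), and the nearest, Kri1 and Ap1m2, were at 0.23 ± 0.17 and 0.09 ± 0.07. Farther out, chosen after their values were seen, Tyk2 at 7 places had 2.37 ± 0.01 and Spc24 at 12 places had 0.72 ± 0.03, both higher in SAMP8. Beside Cdkn2a, Cdkn2b was past 1.2-fold as given above and Mtap, on the other side, was at −0.35 ± 0.05. Over all 10 genes, 6 of 100 neighbours passed 1.2-fold (6.0%) and 2 passed 1.5-fold, both beside Mdm2 (Lyz2 at 0.85 and Lyz1 at 0.79), which is near the 4.65% and 1.48% of all genes.

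**Figure D5:**
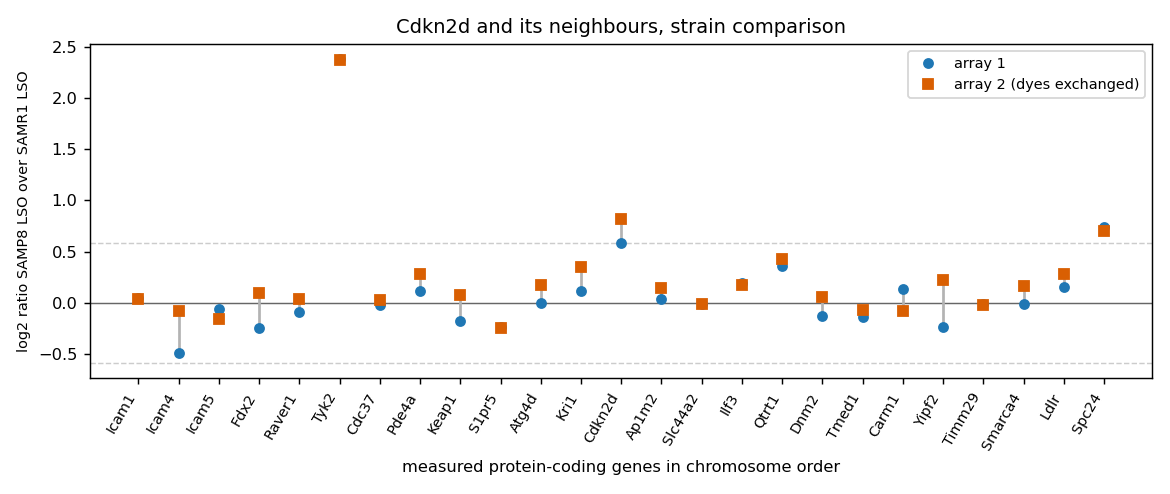
Log2 ratios of SAMP8 LSO over SAMR1 LSO on array 1 (circles) and array 2 (squares) for Cdkn2d and 12 measured protein-coding neighbours on each side, in chromosome order, with dashed lines at 1.5-fold. Cdkn2d lies between genes with ratios near 0; Tyk2 and Spc24 are the other genes above the line.

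The labelled tissue was checked with cell type markers. All 7 neuron, 7 astrocyte, 6 oligodendrocyte and 8 microglia markers were measured in both comparisons. Over all 9 cell type lists, kidney included, 18 of 58 measured markers passed 1.2-fold between strains (31.0%, against 4.65% of all genes). Of these, 14 were higher and 4 lower in SAMP8. The count called between strains was 6 (10.3%, against 1.48%). Between strains 0 of these neuron, oligodendrocyte and microglia markers passed 1.2-fold, with medians of −0.02, 0.00 and 0.10, and the astrocyte median was 0.08, with Gfap (0.55 ± 0.21) and Aqp4 (0.41 ± 0.10) past 1.2-fold. Of the 7 astrocyte markers, 4 were above 0 on both arrays. Another 2 were below 0 on both, Aldh1l1 (−0.06 ± 0.02) and Gja1 (−0.02 ± 0.01), and Slc1a3 was at 0.00 ± 0.21. With median centring the astrocyte median was −0.04. The summed astrocyte level on the log2 scale was 16.83 to 16.96 in SAMP8 LSO and 16.80 in SAMR1. Endothelial and mural markers had a median of 0.43, with 5 of 8 past 1.2-fold, all higher in SAMP8, and summed levels of 14.38 to 14.57 in SAMP8 LSO and 13.98 to 14.05 in SAMR1. Blood cell markers had a median of 0.41, with 4 of 7 past 1.2-fold, all higher in SAMP8, and summed levels of 15.38 to 15.56 and 15.11 to 15.14. Oligodendrocyte precursor markers had a median of 0.23, with 2 of 4 past 1.2-fold (Gpr17 and Olig2, both higher in SAMP8), and summed levels of 13.25 to 13.32 and 13.08 to 13.13. Pdgfra (−0.06 ± 0.13) and Cspg4 (0.13 ± 0.29) had different signs on the arrays. So did the dimmer probes of Gpr17 (0.02 ± 0.06) and Olig2 (0.08 ± 0.31). With the median over each gene's probes, the precursor median was 0.15. Of 5 neuroblast markers 1 passed, Dlx2 (−0.32 ± 0.01, lower in SAMP8), with a median of −0.03 and summed levels of 12.83 to 12.88 and 12.92. For the astrocyte, endothelial and mural, blood cell, precursor and neuroblast lists the summed levels of SAMP8 LSO and SAMR1 did not overlap. Of single probes, 23.8% did not overlap between these RNAs, but the like share for sums over a list was not computed. The brightest markers weigh most in a sum, such as S100b among astrocyte markers, with a mean log2 intensity of 16.02. The astrocyte and neuroblast levels came close to each other, at 16.83 against 16.80 and at 12.88 against 12.92.

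Between diets 5 of 58 measured markers passed 1.2-fold (8.62%, against 0.408% of all genes) and 4 were called (6.9%, against 0.109%). None was a marker of neurons, astrocytes, oligodendrocytes, their precursors, microglia, neuroblasts or endothelial and mural cells. Summed levels in SAMP8 WME were 14.26 to 14.33 for endothelial and mural markers, 13.36 to 13.37 for precursors and 12.79 to 12.82 for neuroblasts. These did not overlap SAMP8 LSO, and of single probes 12.2% did not, a share that was not computed for sums. The precursor level was above SAMP8 LSO and the other 2 were below. Blood cell markers had a median of −0.16, with 2 of 7 called, both lower with WME: S100a8 (−0.80 ± 0.12) and S100a9 (−1.09 ± 0.06). Their summed level was 15.22 to 15.31 in SAMP8 WME, below that of SAMP8 LSO. Among kidney markers, 3 of 6 measured passed 1.2-fold, all higher with WME, led by Kap, a kidney androgen-regulated gene, at 4.44 ± 0.92. Between strains 3 of 6 kidney markers were past 1.2-fold lower in SAMP8, with Kap at −3.00 ± 0.07, and 1 was past it higher, Slc22a6 at 0.43 ± 0.06. Summed kidney marker levels were 12.78 to 12.86 in SAMP8 WME, 11.58 to 11.88 in SAMP8 LSO and 11.80 to 12.02 in SAMR1. The part of these markers in the ratios of Cdkn2d, Cdkn2b and Cdkn1a was not tested. In RNA from whole brain, fewer cells of a type and less RNA per cell cannot be told apart.

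Spot flags were similar on the 4 arrays: of 43379 probe spots, 81.4% to 85.6% per channel were flagged as well above background, 0 were saturated and 105 to 123 were outliers. All arrays lay on 1 slide, and their number limits the precision of every value here.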

How the data were processed

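Per the labels' protocols, whole-brain RNA was measured on 4 Agilent arrays in Cy3 and Cy5. Per the file headers, the authors' scanner files come from Agilent Feature Extraction (version 11.0.1.1) and give each spot's intensity: raw median intensity and local background, and processed intensity that the program had background-subtracted and dye-normalised. The deposited log10 ratio of red over green was not used. The deposited series table holds log2 ratios that equal log2 of red over green processed signal (largest difference 5e-09) and are not turned for dye.

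Median intensities were corrected with normexp (offset 50) and normalised by loess within arrays, with control spots at weight 0 (limma 3.58.1, R 4.3.3). The design allowed mean or median signals, and the files used here hold no mean signal. Outlier spots were left out, the spots of a probe averaged, ratios turned for dye and both arrays averaged. Channel levels were further scaled between arrays with Aquantile. The offset pulls dim ratios towards 0.

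Of 41174 probes, 23374 were named by RefSeq accession through the GRCm38.p6 gene table, used for names and gene order. The array headers name another build, so no probe position is given. With 1 RNA per group no test was run; a call needs 1.5-fold on both arrays. The technical SD is that of the difference of the dye terms of both pairs, divided by the square root of 2. The steps were tested on simulated arrays.

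The genes and lists were chosen with earlier results of these data known. Named genes were all members and, per pathway list, up to 4 called genes or else the 1 with the largest absolute mean ratio in each comparison. Cdkn1c, Cdk4, Fas, Psrc1, Glb1 and Lmnb1 were named outside this rule. Alternatives were other backgrounds, normalisations, offsets, filters on dim probes, the deposited log2 ratios, and each array left out.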

Additional observations from a re-analysis of the deposited data

How the results depend on the processing

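The count of 0 called probes among the 14 between diets held under every alternative run: processed signals, median centring, offset 16, no background subtraction, the deposited log2 ratios, both filters on dim probes, each array left out, and the mean of both arrays, added after the data were seen. Between strains the count became 1, always Cdkn2d, with processed signals, with offset 16, with the deposited log2 ratios and with the mean of both arrays, and 0 to 1 with an array left out. The count past 1.2-fold between strains became 1 with processed signals, median centring and the deposited log2 ratios, and 2 to 3 with an array left out. Between diets it was 1 to 1 with an array left out, where the single array is open to dye bias: Cdkn1a without array 1 and Cdkn1b without array 2. The technical SD of a mean ratio was 0.05, and 0.0876 with processed signals and with the deposited log2 ratios. No paired analysis was possible because each comparison holds 1 RNA per group. Dim probes, Cdkn2a above all, limit what could be measured.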
